A study of Homo sapiens with 12 samples.

Results

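The gene group described here is the folding and quality-control machinery of the endoplasmic reticulum (ER) together with the sensors that watch over it. It holds 32 genes of 54553 in the files: chaperones, their co-chaperones, disulfide isomerases, lectin chaperones, luminal stress proteins, the ER-associated degradation (ERAD) machinery, 1 translocon subunit, and the sensors ATF6, ERN1 and EIF2AK3 with XBP1. The genes were named by their known function, with earlier results of these data known, and all 32 passed the filter on low counts that left 18047 genes for testing. The cells were Caco-2, an established human colorectal adenocarcinoma line with the wild-type genotype in every group, profiled by RNA sequencing of total RNA after removal of ribosomal RNA. Bafilomycin A1 blocks the vacuolar proton pump, so that lysosomes lose their acidity. The 12 libraries formed 4 groups of 3, all treated for 48 h. Rich medium (EMEM with 1 g/L glucose, 2 mM glutamine and 20% serum) was given with vehicle or with 100 nM bafilomycin A1. Depleted medium (DMEM with 0.1 g/L glucose, 0.2 mM glutamine and 1% serum) was likewise given with vehicle or 100 nM bafilomycin A1. Pyruvate and non-essential amino acids were in both media. The base medium differed along with the nutrients, so the part of each cannot be told apart. All groups are 1 cell line, and nothing says that its replicates were separate cultures, so the p-values measure the spread between these libraries, which may be technical.

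Secreted and membrane proteins fold in the ER, where BiP (HSPA5) and its partners hold unfolded chains and isomerases form disulfide bonds. Proteins that fail to fold are pulled back to the cytosol through a channel around the ubiquitin ligase HRD1 (SYVN1) and its partner SEL1L, and are degraded by the proteasome. When unfolded proteins build up, IRE1 (ERN1) splices XBP1 mRNA, ATF6 is cut in the Golgi to free a transcription factor, and PERK (EIF2AK3) phosphorylates eIF2 alpha. ATF6 and spliced XBP1 then raise transcription of chaperone and ERAD genes. In the intestinal epithelium the system is known from secretory cells above all, and from inflammation when it fails.

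Some of these genes hold, in the DNA before their start, elements that ATF6 and XBP1 are known to bind (11 of the 29 searched). The windows of HSPA5, HERPUD1 and HYOU1 are shown as examples that hold a match, from genes that rose with depletion. Those of DNAJB9 and ATF6, on which results below also rest, held no match and are not shown. Each line gives the 250 bases before the annotated start (RefSeq, GRCh38.p14), on the strand of the gene, with the letters that match a motif in capitals and all other bases in lower case. HSPA5 lies on chromosome 9 on the minus strand (chr9:125241344-125241593), HERPUD1 on chromosome 16 on the plus strand (chr16:56931892-56932141) and HYOU1 on chromosome 11 on the minus strand (chr11:119057206-119057455).
HSPA5: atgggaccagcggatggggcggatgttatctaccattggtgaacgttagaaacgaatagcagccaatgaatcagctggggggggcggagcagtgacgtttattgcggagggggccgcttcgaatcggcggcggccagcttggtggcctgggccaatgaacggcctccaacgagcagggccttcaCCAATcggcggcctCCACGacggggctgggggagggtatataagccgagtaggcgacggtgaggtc
HERPUD1: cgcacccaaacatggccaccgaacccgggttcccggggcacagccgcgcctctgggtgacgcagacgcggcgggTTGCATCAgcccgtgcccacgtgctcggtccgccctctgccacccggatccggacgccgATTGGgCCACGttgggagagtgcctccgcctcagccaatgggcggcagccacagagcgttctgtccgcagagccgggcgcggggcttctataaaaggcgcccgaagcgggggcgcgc
HYOU1: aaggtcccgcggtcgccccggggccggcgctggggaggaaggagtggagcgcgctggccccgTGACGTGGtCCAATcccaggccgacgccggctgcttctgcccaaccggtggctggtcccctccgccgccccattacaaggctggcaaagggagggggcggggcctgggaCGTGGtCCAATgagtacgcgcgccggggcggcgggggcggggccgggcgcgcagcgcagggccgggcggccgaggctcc

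In the HSPA5 window the capitals mark an ER stress response element (ERSE), which is CCAAT and CCACG with 9 free bases between. In the HERPUD1 window they mark a match to TGATGCAA, the core of the element that ATF4 with C/EBP factors binds, read on the opposite strand, and then an ERSE-II, which is ATTGG and CCACG with 1 free base between. In the HYOU1 window they mark the UPRE core TGACGTGG, an ERSE-II on the opposite strand that overlaps that core, and another ERSE-II nearer to the start. Both strands were searched in windows from 250 bases before to 50 after the start, which RefSeq gave for 29 of the 32 genes (none for DERL1, DERL3 and PDIA3). ERSE was found in 7 of the 29 (24.1%), CALR, CANX, CRELD2, HSP90B1, HSPA5, PDIA6 and XBP1, against 0.0916% of the 27305 genes with windows, counted the same way over all windows of a gene (0.0769% of 35116 single windows). ERSE-II was found in HERPUD1, HYOU1 and SDF2L1 (10.3%), against 0.0696% of genes (0.0541% of windows). The UPRE core was found in DNAJC10 and HYOU1 (6.9%), against 0.927% of genes (0.729% of windows), and TGATGCAA in HERPUD1 alone of the 29 (3.45%), against 1.08% of genes (0.866% of windows). A match is a run of letters and not evidence of binding. The genes were named by known function, which takes in known targets of factors that bind these elements. Higher shares than over all genes may thus follow from the choice of genes, and were not tested. The letters TGATGCAA were set after the windows were read, so the match in HERPUD1 was known and its share is no test.

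**Figure D1:**
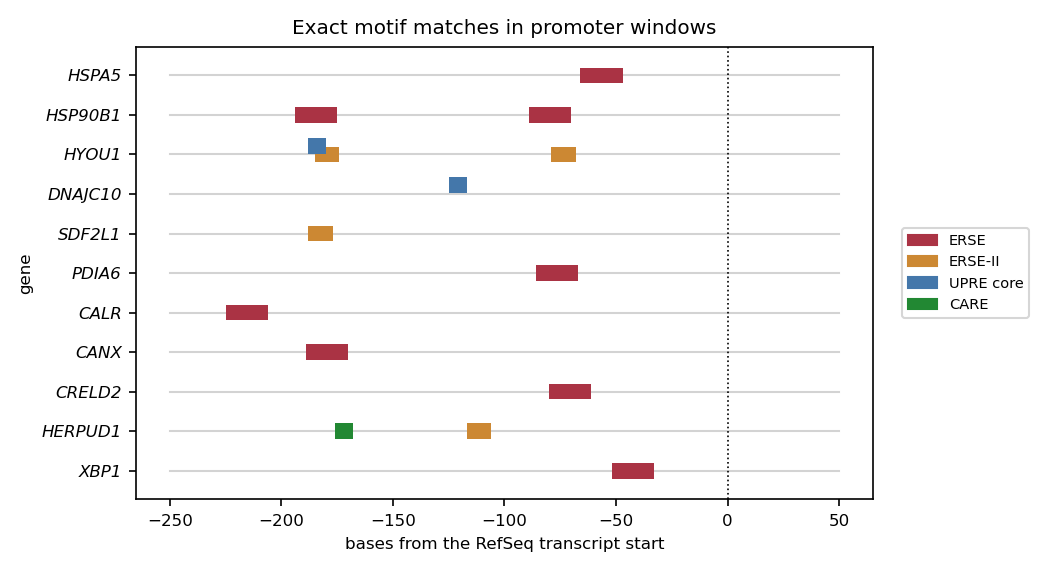
Position of each motif match in the promoter windows of the ER genes that have one. The x axis is the distance in bases from the annotated start, each row is a gene with 1 of its windows, and the block colour shows the motif, with CARE for TGATGCAA; the HSPA5 match lies from -66 to -48 and the ERSE-II of HERPUD1 from -117 to -107.

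Depth was lowest in 1 library. Rich vehicle replicate 1 had 12969814 assigned reads, and the other 11 had 33859998 to 51649213. The 32 genes took 0.707 to 1.01% of reads in rich vehicle, 0.789 to 0.984% in rich medium with bafilomycin A1, 1.11 to 1.51% in depleted vehicle and 1.31 to 1.81% in depleted medium with bafilomycin A1. Of 10 epithelial markers, 8 were at 1 CPM (a read count scaled to a common library total) or more in every library, while KRT20 and CDX1 stayed at or below 0.501 CPM. Their sum was 7210 to 9930 CPM in rich vehicle, 6030 to 7600 in rich medium with bafilomycin A1, 5230 to 6220 in depleted vehicle and 3260 to 3770 in depleted medium with bafilomycin A1, and its part in the results was not tested. The leucocyte genes PTPRC and CD3E stayed at or below 0.258 CPM and CD14 was at 2.38 to 14.7. Of 3 fibroblast markers 2 were at 1 CPM or more in every library, led by COL1A1 at 19.3 to 32.4, and of 2 endothelial markers 1, PECAM1 at 1.22 to 10.6. The fibroblast markers summed to 22.1 to 30.3 CPM in depleted medium with bafilomycin A1 and 30.9 to 55.2 in the other groups. The median difference between transcript length and effective length, which follows fragment size, was 176 to 198 bases in depleted medium with bafilomycin A1 and 201 to 254 in the other libraries. In bulk RNA, fewer cells of a kind and less RNA per cell cannot be told apart.

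Per kilobase of effective length and averaged over the 4 groups, the most abundant of the 32 were CALR at 510 CPM per kb, CANX at 483 and P4HB at 450.2. HSPA5 followed at 339.8 and HSP90B1 at 321 CPM per kb. The least abundant were ERN1 at 10.2, DERL2 at 8.08 and DERL3 at 3.68 CPM per kb. Lectin chaperones and an isomerase stood at the top of the range and a sensor near its bottom.

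Each comparison was fitted across all 18047 genes with edgeR's quasi-likelihood test, and a gene was said to rise or fall at a Benjamini-Hochberg adjusted p under 0.05. Depleted against rich medium with vehicle, the comparison that asks for the response to nutrient loss, raised 13 of 32 (40.6%), where 15.5% of all genes rose. Bafilomycin A1 against vehicle in rich medium, which asks for the response to lysosomal alkalinization in fed cells, raised 4 (12.5%), where 6.15% of all genes rose. In depleted medium bafilomycin A1 raised 8 (25%), where 5.5% of all genes rose. Depleted against rich medium with bafilomycin A1 raised 20 (62.5%), where 10.5% of all genes rose. In this fit none of the 32 fell in any of these, where 15.4%, 4.78%, 5.91% and 13.6% of all genes fell, and DESeq2 called 0 lower as well. At an unadjusted p under 0.05 the lower count was 0, 0, 1 and 0 in the same order, and the 1 gene was CALR. The median log2 fold change of the 32 was, again in that order, 0.42, 0.01, 0.39 and 0.83, and over all genes tested 0.04, 0.02, -0.03 and 0.01. The 3 libraries of the higher group lay above all 3 of the other for 13, 6, 12 and 26 of the 32 genes, as for 23%, 14.9%, 19.8% and 23.4% of all genes. They lay below for 0, 0, 0 and 1 (PDIA6), against 18.2%, 11.1%, 20.1% and 23.8% of all genes. Comparisons that share a group of 3 libraries are not independent of each other.

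The highest group mean was in depleted medium with bafilomycin A1 for 26 of the 32 genes, in depleted vehicle for 5 and in rich vehicle for 1. Of the 32, 3 rose in all 4 comparisons (HERPUD1, SYVN1 and ERN1), and 10 in none. The 2 bafilomycin A1 comparisons share no library. Of the 4 genes that rose in rich medium, 3 rose in depleted medium too (75% of the 4, 37.5% of the 8), and the other was DNAJB9. The 2 depletion comparisons share no library either. Of the 13 genes that rose with vehicle, 11 rose with bafilomycin A1 (84.6% of the 13, 55% of the 20), and the others were DERL3 and OS9. None of the counts in this paragraph was made over all genes, so they show no trait particular to the 32.

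**Figure D2:**
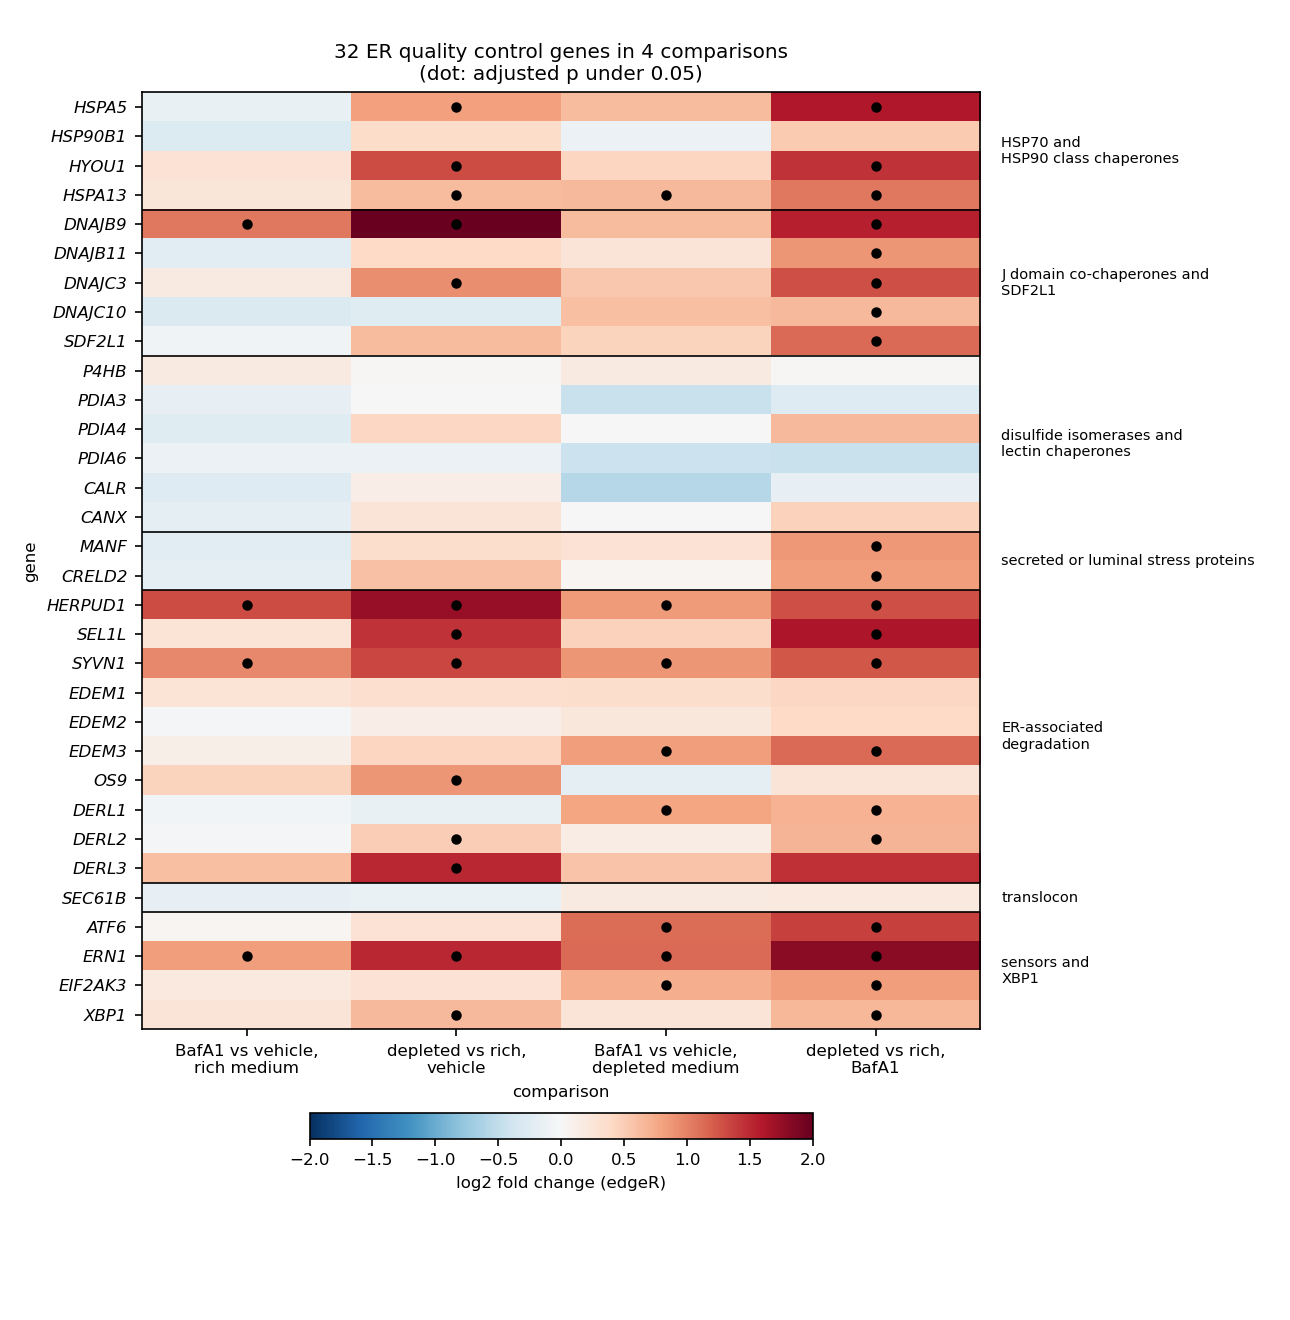
Log2 fold change of each of the 32 ER genes in the 4 comparisons, grouped by role, with colour for the value and a mark where the adjusted p was under 0.05. Marks fill most rows of depletion with bafilomycin A1 (20 of 32) and few of bafilomycin A1 in rich medium (4 of 32).

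Of 4 HSP70 and HSP90 class chaperones, HSPA5, HYOU1 and HSPA13 rose with depletion in either treatment, and HSP90B1 was not called. Counts by role, here and below, are to be read against the shares of all genes that rose. With depletion those were 15.5% in vehicle and 10.5% in bafilomycin A1. With bafilomycin A1 they were 6.15% in rich and 5.5% in depleted medium. HSPA5 encodes BiP, the HSP70 that binds unfolded chains and keeps the sensors silent. It was at 781, 966 and 637 CPM in rich vehicle and at 617, 580.5 and 942 in rich medium with bafilomycin A1. In depleted medium it was at 1113, 1935 and 1146 CPM with vehicle and at 1725, 2769.8 and 2013 with bafilomycin A1. Every depleted library was above the rich libraries of the same treatment, while the vehicle and bafilomycin A1 libraries overlapped in both media. HSPA5 rose with depletion by 0.81 ± 0.28 (log2, SE) with vehicle (adjusted p = 0.0348) and by 1.60 ± 0.28 with bafilomycin A1 (adjusted p = 0.000959). Its change with bafilomycin A1 was -0.16 ± 0.27 in rich medium (adjusted p = 0.763) and 0.63 ± 0.27 in depleted medium (adjusted p = 0.155). The call with vehicle was lost without depleted vehicle replicate 2, the highest library (log2 0.51, adjusted p = 0.183), without rich vehicle replicate 1 (adjusted p = 0.0785) and without rich vehicle replicate 3 (adjusted p = 0.104). A fit of only the 6 libraries compared lost this call too (adjusted p = 0.0684).

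HYOU1, an HSP70 relative that acts as a nucleotide exchange factor for BiP, showed the largest depletion response of this class with vehicle. It was at 288, 554 and 365 CPM in rich vehicle and at 351, 399 and 727 with bafilomycin A1. Depleted libraries held 759.7, 1288 and 950.3 CPM with vehicle and 1118, 1671 and 1238 with bafilomycin A1. As for HSPA5, depleted and rich libraries of the same treatment did not overlap. It rose with depletion by 1.31 ± 0.31 with vehicle (adjusted p = 0.00484) and by 1.45 ± 0.31 with bafilomycin A1 (adjusted p = 0.00358). HSPA13, an HSP70 of the microsomal lumen, rose by 0.64 and 1.06 with depletion in the same order and by 0.65 ± 0.19 with bafilomycin A1 in depleted medium (adjusted p = 0.0347), and its change in rich medium was 0.24. HSPA13 lost the depletion call with vehicle without depleted vehicle replicate 2 (adjusted p = 0.0983). It lost the bafilomycin A1 call without depleted vehicle replicate 1 (adjusted p = 0.165) or 3 (0.0963), or depleted bafilomycin A1 replicate 2 (0.151) or 3 (0.124).

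HSP90B1 encodes GRP94, the HSP90 of the ER, and it was not called in any comparison in the fit of all 12 libraries. Rich vehicle held 836, 909 and 589.9 CPM and rich medium with bafilomycin A1 612, 604 and 712. Depleted vehicle held 847, 1414 and 766 CPM and depleted medium with bafilomycin A1 712, 1101 and 971. The depleted vehicle libraries overlapped those of rich vehicle, with replicate 2 of depleted vehicle above the rest, and with bafilomycin A1 the lowest depleted and highest rich library were both at 712 CPM after rounding. Its log2 fold changes were 0.37 ± 0.25 and 0.53 ± 0.25 with depletion and -0.28 ± 0.25 and -0.12 ± 0.25 with bafilomycin A1 in rich and depleted medium. Fitted on just those 6 libraries, depletion with bafilomycin A1 was called (0.54, adjusted p = 0.0387, against 0.139 with all 12). Its promoter holds an ERSE, as that of HSPA5 does.

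All 5 genes of the J domain class, SDF2L1 included, rose with depletion in bafilomycin A1, and 2 of the 5 with vehicle. DNAJB9 encodes ERdj4, a J protein that recruits BiP to IRE1 and to ERAD substrates, and had the largest fold change of the 32 in the depletion comparison with vehicle. It was at 24.0, 29.5 and 31.5 CPM in rich vehicle and at 49.0, 42.2 and 85.8 with bafilomycin A1. In depleted medium it was at 85.6, 139.9 and 111 CPM with vehicle and at 150.1, 206 and 165 with bafilomycin A1. No pair of groups compared overlapped, and replicate 3 of rich medium with bafilomycin A1 was well above its group. DNAJB9 rose with depletion by 1.98 ± 0.25 with vehicle (adjusted p = 7.93e-05) and by 1.56 ± 0.25 with bafilomycin A1 (adjusted p = 0.000484). It rose with bafilomycin A1 in rich medium by 1.05 ± 0.25 (adjusted p = 0.0146), and its change in depleted medium was 0.63 ± 0.24 (adjusted p = 0.109). The rich medium call was lost without replicate 3 of rich medium with bafilomycin A1 (log2 0.69, adjusted p = 0.0769) and without rich vehicle replicate 1 (adjusted p = 0.055). Fits of only the 6 libraries compared lost that call (adjusted p = 0.0554) and called the change in depleted medium (adjusted p = 0.0288).

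DNAJC3, the J protein known as p58IPK, rose with depletion by 0.93 ± 0.19 with vehicle (adjusted p = 0.00215) and by 1.30 ± 0.19 with bafilomycin A1 (adjusted p = 0.000327). DNAJB11, a J protein that delivers substrates to BiP, rose with depletion in bafilomycin A1 by 0.88 ± 0.21, and its change with vehicle was 0.40. SDF2L1, a partner of DNAJB11, rose there by 1.14 ± 0.30 and was at 0.63 with vehicle (adjusted p = 0.121). DNAJC10, a J protein that reduces disulfide bonds, rose there by 0.65 ± 0.19 (adjusted p = 0.0243) and was at -0.25 with vehicle. The DNAJC10 call was lost on leaving out any library of its 2 groups but depleted bafilomycin A1 replicate 1, with adjusted p from 0.055 (rich bafilomycin A1 replicate 1) to 0.0917 (depleted bafilomycin A1 replicate 2). SDF2L1 lost its call without rich bafilomycin A1 replicate 1 (adjusted p = 0.0701) or 2 (0.0637).

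The disulfide isomerases and lectin chaperones were not called in any comparison by edgeR in the fit of all 12 libraries, 0 of 6, while 2 reached an unadjusted p under 0.05 for depletion with bafilomycin A1 (both higher) and 1 for bafilomycin A1 in depleted medium (CALR, lower). DESeq2 called 1 of the 6, CANX, higher for depletion with bafilomycin A1. CALR encodes calreticulin, a lectin that holds glycoproteins during folding, and its mean was 924 ± 253 CPM (SD, n = 3) in rich vehicle, 769.8 ± 18.2 in rich medium with bafilomycin A1, 1017 ± 276 in depleted vehicle and 686 ± 157 in depleted medium with bafilomycin A1. Its log2 fold change with bafilomycin A1 in depleted medium was -0.57 ± 0.24 (adjusted p = 0.14). PDIA6, a disulfide isomerase, was at 441 ± 93.2 CPM in rich vehicle and at 301 ± 43.9 in depleted medium with bafilomycin A1. The 3 libraries of that last group, at 256 to 343 CPM, were all below those of rich medium with bafilomycin A1, at 371 to 454, with a log2 fold change of -0.44 ± 0.21 (adjusted p = 0.146). CANX, the membrane-bound lectin calnexin, P4HB, the classical disulfide isomerase, PDIA3, the isomerase of glycoproteins, and PDIA4 had log2 fold changes of 0.45, 0.03, -0.26 and 0.64 for depletion with bafilomycin A1. PDIA4 was called there with no filter on low counts (adjusted p = 0.0262) and in a fit of only the 6 libraries (0.0432), against 0.104 in the fit of all 12. An alternative run with a term for replicate number, described at the end, called CALR and PDIA6 lower with bafilomycin A1 in depleted medium. That run also called PDIA6 lower and PDIA4 higher for depletion with bafilomycin A1. The translocon subunit SEC61B was not called, with log2 fold changes of -0.16 to 0.20 in the 4 comparisons.

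The luminal stress proteins rose with depletion in bafilomycin A1, 2 of 2, and were not called in the other 3 comparisons in the fit of all 12 libraries. MANF, a secreted survival factor that binds BiP, rose by 0.87 ± 0.21 (adjusted p = 0.00806). CRELD2 rose by 0.83 ± 0.25 (adjusted p = 0.0259), and its change with depletion in vehicle was 0.59 (adjusted p = 0.0915). The vehicle change was called with no filter on low counts (adjusted p = 0.0422) and without depleted vehicle replicate 1 (0.0486) or rich vehicle replicate 2 (0.0456). CRELD2 averaged 13.5 ± 4.16 CPM (SD, n = 3) in rich medium with bafilomycin A1 and 24.0 ± 2.7 in depleted medium with bafilomycin A1. Its call with bafilomycin A1 was lost without depleted bafilomycin A1 replicate 2 (adjusted p = 0.0985) or 3 (0.0562), or rich bafilomycin A1 replicate 1 (0.124) or 2 (0.121).

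**Figure D3:**
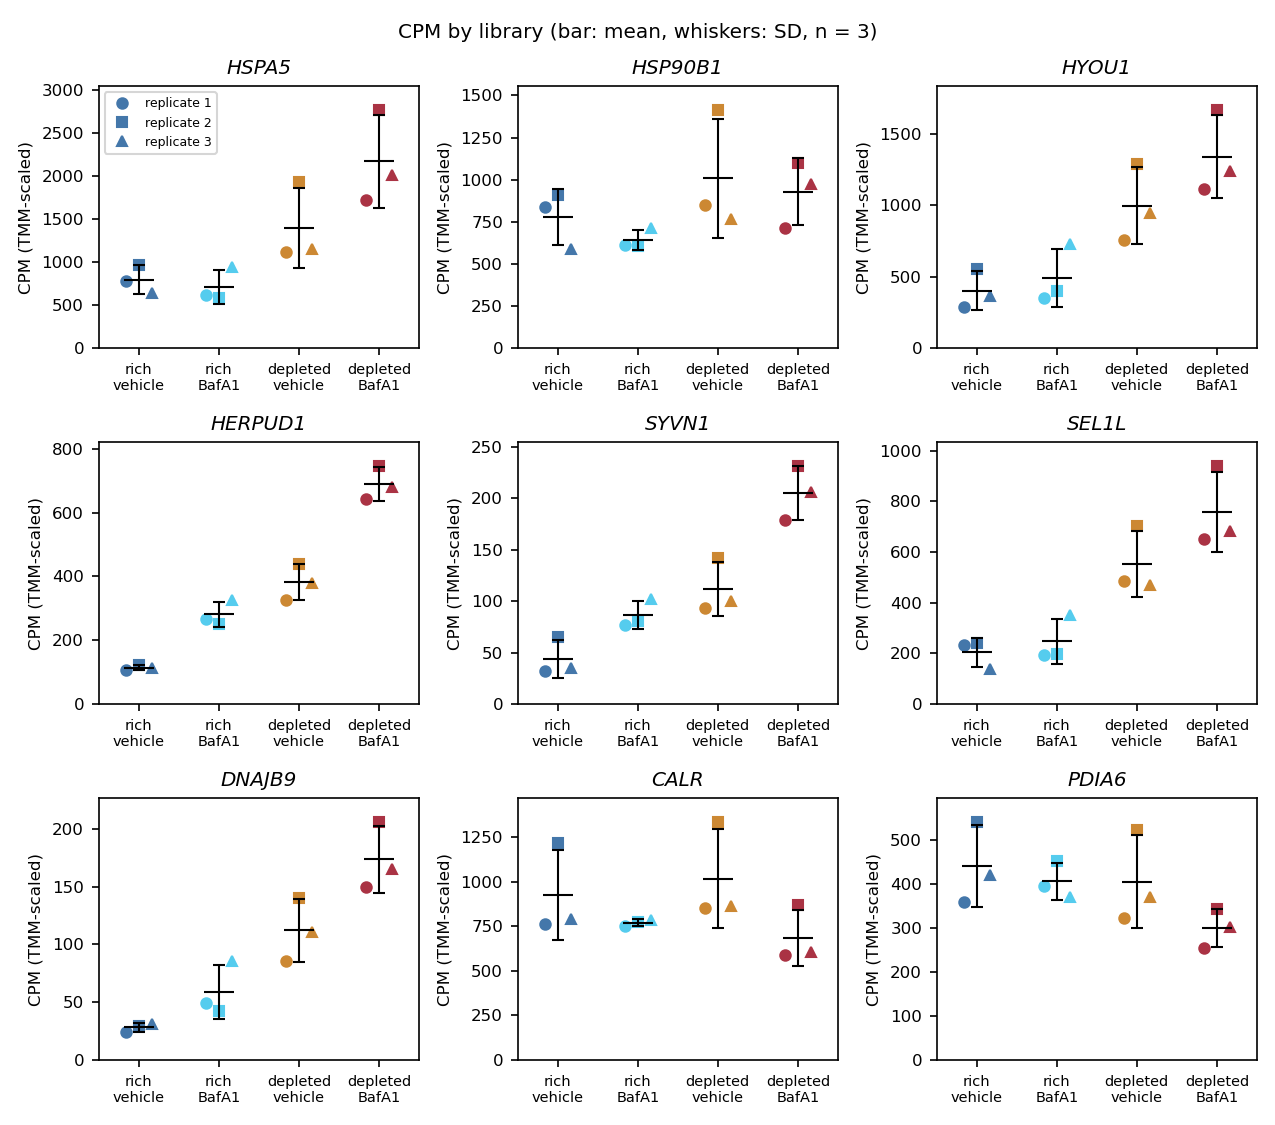
CPM of 9 chaperone and ERAD genes in every library, in 4 groups of 3, with points for libraries and bars for the mean and SD. HERPUD1 steps up over the 4 groups without overlap between any that were compared, whereas CALR and PDIA6 do not.

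HERPUD1 and SYVN1, which form part of the HRD1 complex, rose in all 4 comparisons. Of the 10 ERAD genes, 6 rose with depletion in each treatment, 2 with bafilomycin A1 in rich medium and 4 in depleted medium. HERPUD1 encodes a membrane protein that scaffolds the HRD1 ligase. It was at 107, 123 and 113 CPM in rich vehicle and at 267, 252 and 325 with bafilomycin A1. Depleted libraries held 328, 440.1 and 379 CPM with vehicle and 641, 747 and 681 with bafilomycin A1. The lowest library of each higher group was above the highest of the group it was compared with. HERPUD1 rose with bafilomycin A1 by 1.30 ± 0.17 in rich medium (adjusted p = 0.000486) and by 0.85 ± 0.17 in depleted medium (adjusted p = 0.00454). With depletion it rose by 1.74 ± 0.17 in vehicle (adjusted p = 1.83e-05) and by 1.29 ± 0.17 in bafilomycin A1 (adjusted p = 0.00011). Its calls held in every alternative run.

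SYVN1 encodes the ligase HRD1 itself. It was at 32.3, 65.0 and 34.5 CPM in rich vehicle and at 76.4, 80.3 and 102 with bafilomycin A1. In depleted medium it was at 93.2, 142 and 99.7 CPM with vehicle and at 178, 231 and 206 with bafilomycin A1. Each group lay above the one it was compared with. SYVN1 rose with bafilomycin A1 by 0.97 ± 0.25 in rich medium (adjusted p = 0.0211) and 0.88 ± 0.24 in depleted medium (adjusted p = 0.0309). The depletion changes were 1.34 ± 0.25 in vehicle and 1.25 ± 0.25 in bafilomycin A1 (adjusted p = 0.00097 and 0.00213). The call in rich medium was lost without any of rich medium with bafilomycin A1 replicate 3 (adjusted p = 0.0909), rich vehicle replicate 1 (0.0767) or rich vehicle replicate 3 (0.0608). A fit of only the 6 rich libraries lost it as well (adjusted p = 0.0709). The bafilomycin A1 call in depleted medium was lost without depleted vehicle replicate 1 (adjusted p = 0.135) or 3 (0.0964), or depleted bafilomycin A1 replicate 2 (0.111) or 3 (0.0868). SYVN1 exons overlap those of FAU on the same strand and of MRPL49 on the other, so some of its reads are uncertain.

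SEL1L, the adaptor that ties HRD1 to its substrates, rose with depletion in both treatments. It was at 233, 242 and 138 CPM in rich vehicle and at 195, 199 and 351 with bafilomycin A1. Depleted libraries held 486, 705 and 470.2 CPM with vehicle and 649.9, 941 and 684 with bafilomycin A1. Depleted and rich libraries did not overlap in either treatment, and vehicle and bafilomycin A1 overlapped in both media. The depletion changes were 1.44 ± 0.28 and 1.61 ± 0.28 (adjusted p = 0.0013 and 0.000882), and those with bafilomycin A1 were 0.28 and 0.45 (adjusted p = 0.553 and 0.322).

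EDEM3, a mannosidase-like protein that marks glycoproteins for ERAD, was at 57.9, 66 and 43.7 CPM in rich vehicle and 62.8, 56.6 and 63.3 with bafilomycin A1. Depleted vehicle held 76.7, 83.3 and 64.7 CPM and depleted medium with bafilomycin A1 105, 147 and 150.4. The last group stood apart from the other 3. It rose with bafilomycin A1 in depleted medium by 0.84 ± 0.18 (adjusted p = 0.00794) and with depletion in bafilomycin A1 by 1.14 ± 0.18 (adjusted p = 0.000482), with 0.12 and 0.42 in the other comparisons. The EDEM3 change with depletion in vehicle was called without rich vehicle replicate 2 (adjusted p = 0.031). EDEM1 and EDEM2, its relatives, were not called in the fit of all 12 libraries, with log2 fold changes of 0.27 to 0.42 and -0.03 to 0.39. For depletion with bafilomycin A1, a fit of only the 6 libraries called EDEM1 (adjusted p = 0.0216) and EDEM2 (0.0293), and DESeq2 called EDEM2 (0.0314). EDEM1 was called for depletion in vehicle without rich vehicle replicate 2 (adjusted p = 0.0423).

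DERL3, a derlin of the retrotranslocation channel, was at 0.223, 3.93 and 2.8 CPM in rich vehicle, which in the shallow first replicate was 3 reads. It was at 2.1, 3.36 and 5.82 CPM in rich medium with bafilomycin A1. Depleted vehicle held 5.57, 8.99 and 6.38 CPM and depleted medium with bafilomycin A1 8.94 to 12 with a median of 10.1. Depletion separated the groups in both treatments. DERL3 rose with depletion in vehicle by 1.50 ± 0.54 (adjusted p = 0.0477), and its change in bafilomycin A1 was 1.46 ± 0.53 (adjusted p = 0.0577). DESeq2 did not call the first (adjusted p = 0.0681), and it was lost without any depleted vehicle library (adjusted p = 0.0747 to 0.135) or rich vehicle replicate 3 (0.0856). The second was called without rich bafilomycin A1 replicate 3 (adjusted p = 0.0285). In fits of only the 6 libraries compared, the first was not called (adjusted p = 0.107) and the second was (adjusted p = 0.00478).

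DERL1, another channel protein, rose with bafilomycin A1 in depleted medium by 0.79 ± 0.20 (adjusted p = 0.0205) and with depletion in bafilomycin A1 by 0.69 ± 0.20. The first DERL1 call was lost without depleted vehicle replicate 1 (adjusted p = 0.104) or 3 (0.0628), or depleted bafilomycin A1 replicate 2 (0.0806) or 3 (0.0946). The other was lost without depleted bafilomycin A1 replicate 2 (0.0848) or 3 (0.0894), or rich bafilomycin A1 replicate 1 (0.0659) or 3 (0.0766). DERL2, another derlin, rose with depletion by 0.49 ± 0.16 in vehicle and 0.68 ± 0.16 in bafilomycin A1. Its vehicle call was lost without depleted vehicle replicate 2 (adjusted p = 0.164) or 3 (0.0655) or rich vehicle replicate 1 (0.0712) or 3 (0.0507), and the other without rich bafilomycin A1 replicate 2 (0.0532). The DERL2 call in vehicle was also lost in a fit of only the 6 libraries compared (adjusted p = 0.0802) and with no filter on low counts (0.0783). OS9, the lectin that hands substrates to SEL1L, rose with depletion in vehicle by 0.88 ± 0.23 (adjusted p = 0.00838), and its change in bafilomycin A1 was 0.25 ± 0.22. With bafilomycin A1 in rich medium its change was 0.44 ± 0.22 (adjusted p = 0.227), which was called without rich vehicle replicate 2 (0.74, adjusted p = 0.0263).

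Of ATF6, ERN1, EIF2AK3 and XBP1, 2 rose with depletion in vehicle, 1 with bafilomycin A1 in rich medium, 3 with bafilomycin A1 in depleted medium and 4 with depletion in bafilomycin A1. ERN1 encodes IRE1 alpha, the kinase and nuclease that splices XBP1 mRNA. It was at 26.2, 32.2 and 19.7 CPM in rich vehicle and at 38.5, 41.9 and 58.9 with bafilomycin A1. Depleted libraries held 62.5, 84.9 and 74.2 CPM with vehicle and 152, 180.0 and 155 with bafilomycin A1. No groups that were compared overlapped, and the mean in depleted medium with bafilomycin A1 was 6.24 times that of rich vehicle. ERN1 rose with bafilomycin A1 by 0.83 ± 0.20 in rich medium (adjusted p = 0.0167) and by 1.14 ± 0.20 in depleted medium (adjusted p = 0.00243). With depletion it rose by 1.50 ± 0.20 in vehicle (adjusted p = 0.000112) and by 1.81 ± 0.20 in bafilomycin A1 (adjusted p = 4.37e-05). The rich medium call was lost without replicate 3 of rich medium with bafilomycin A1 (log2 0.63, adjusted p = 0.083). A fit of only the 6 rich libraries lost it too (adjusted p = 0.0888).

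ATF6, the transmembrane transcription factor that is cleaved in the Golgi, had another pattern. It was at 69.8, 87.8 and 67.1 CPM in rich vehicle and at 71.4, 74.1 and 86.1 with bafilomycin A1. In depleted medium it was at 86.3, 103 and 86.5 CPM with vehicle and at 162, 234 and 199.8 with bafilomycin A1. Rich vehicle overlapped with both groups it was compared with, and the last group lay above all the others. ATF6 rose with bafilomycin A1 in depleted medium by 1.11 ± 0.17 (adjusted p = 0.000892) and with depletion in bafilomycin A1 by 1.36 ± 0.17 (adjusted p = 8.05e-05). Its changes were 0.04 ± 0.17 with bafilomycin A1 in rich medium and 0.29 ± 0.17 with depletion in vehicle (adjusted p = 0.903 and 0.195).

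EIF2AK3 encodes PERK. It was at 68.8, 72.1 and 43.5 CPM in rich vehicle and 71.7, 77.2 and 61.5 with bafilomycin A1. Depleted vehicle held 67.7, 96.1 and 62.1 CPM and depleted medium with bafilomycin A1 116, 141 and 117. Here too the last group stood above the other 3. EIF2AK3 rose with bafilomycin A1 in depleted medium by 0.73 ± 0.20 (adjusted p = 0.0325) and with depletion in bafilomycin A1 by 0.83 ± 0.21 (adjusted p = 0.00878). The first of these calls was lost on leaving out any library of its 2 groups but depleted vehicle replicate 2, with adjusted p from 0.0562 (depleted bafilomycin A1 replicate 1) to 0.131 (depleted vehicle replicate 1).

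XBP1, the transcription factor that IRE1 switches on by splicing, was counted only as a total, and its splicing was not measured. It was at 197, 187 and 168 CPM in rich vehicle and at 201, 213 and 245 with bafilomycin A1. Depleted libraries held 248, 321 and 299 CPM with vehicle and 325, 361 and 355 with bafilomycin A1. It rose with depletion by 0.65 ± 0.15 in vehicle (adjusted p = 0.00492) and by 0.66 ± 0.15 in bafilomycin A1 (adjusted p = 0.00617). Its changes with bafilomycin A1 were 0.26 ± 0.15 in both media (adjusted p = 0.309 and 0.305), although the groups did not overlap in either medium.

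**Figure D4:**
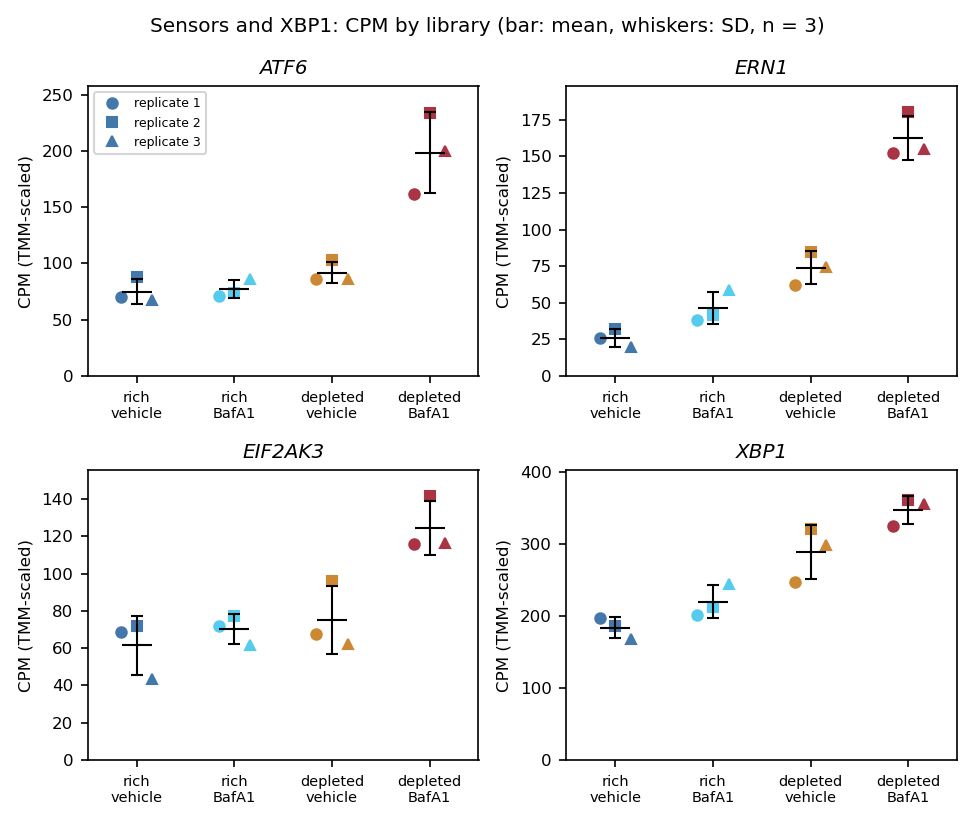
CPM of ATF6, ERN1, EIF2AK3 and XBP1 in every library, in 4 groups of 3, with points for libraries and bars for the mean and SD. ATF6 and EIF2AK3 are higher in depleted medium with bafilomycin A1 than in the other 3 groups, while ERN1 steps up over the 4.

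Whether cells in the 2 media answered bafilomycin A1 differently was tested as an interaction, with positive values for a larger log2 fold change in depleted medium. Of the 32 genes, 1 was higher by this test (3.12%), where 2.35% of all genes were, and 0 lower, where 3.83% were, with 4 higher and 0 lower at an unadjusted p under 0.05 and 3 and 0 by DESeq2. The gene was ATF6, with a difference of 1.07 ± 0.23 (adjusted p = 0.0173). Its call was lost without depleted vehicle replicate 1 (1.02, adjusted p = 0.06) and without depleted bafilomycin A1 replicate 2 (0.94, adjusted p = 0.0562). DNAJC10 at 0.89 ± 0.28 (adjusted p = 0.0675) and DERL1 at 0.84 ± 0.29 (adjusted p = 0.0947) did not pass, and both passed with DESeq2. Leaving out rich vehicle replicate 1 brought DERL1 past the threshold (adjusted p = 0.0379), and rich vehicle replicate 3 (0.0273) or depleted vehicle replicate 2 (0.0366) DNAJC10. EDEM3 passed without rich vehicle replicate 3 (0.86, adjusted p = 0.0393), and OS9 was called lower without rich vehicle replicate 2 (-0.92, adjusted p = 0.0431). For HERPUD1 the difference was -0.45 ± 0.23 (adjusted p = 0.276), for ERN1 0.30 ± 0.28 (adjusted p = 0.571) and for HSPA5 0.79 ± 0.39 (adjusted p = 0.244). The interval for HSPA5, -0.10 to 1.68 on the log2 scale at 95% confidence, holds differences of more than 1. It was built on the 8 residual degrees of freedom and is wider than an interval on those of the test would be.

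**Figure D5:**
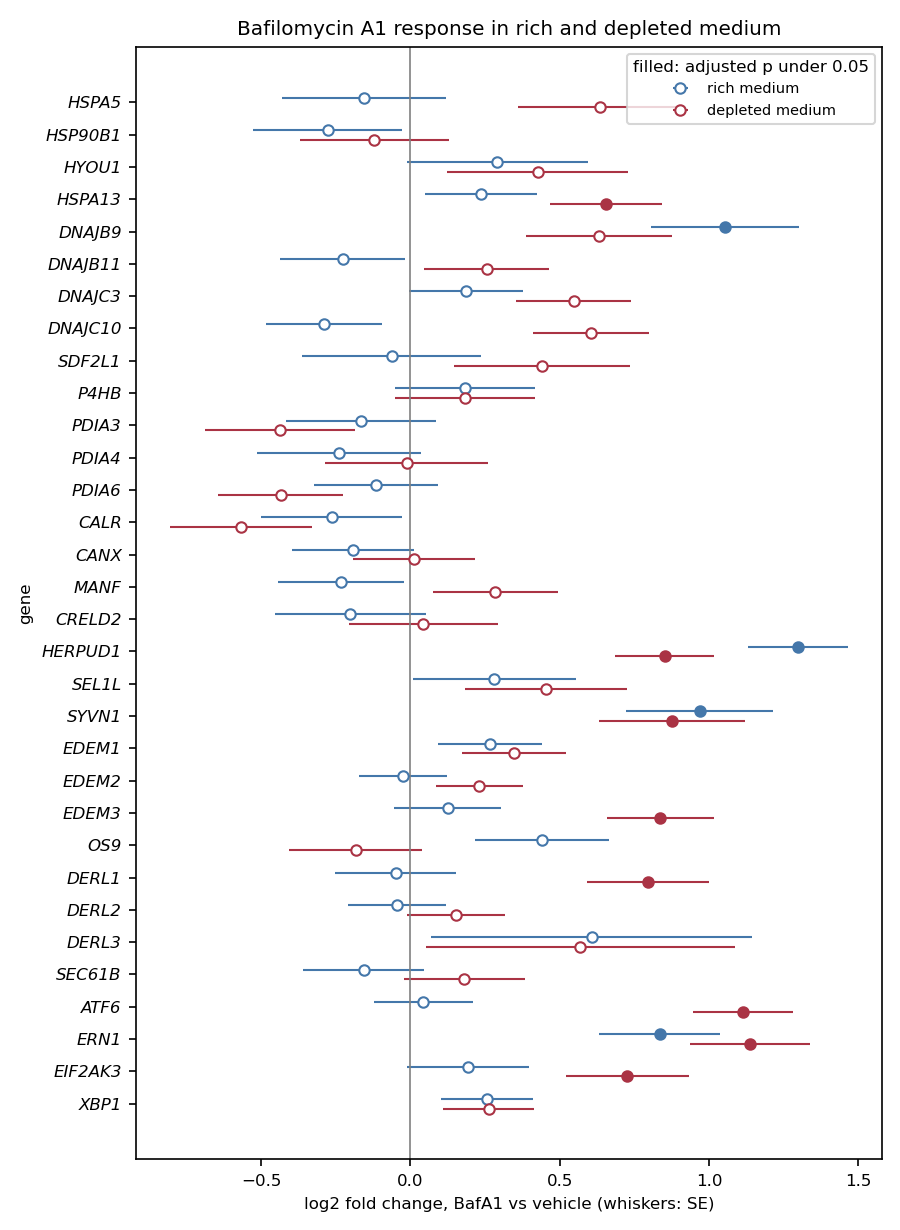
Log2 fold change with bafilomycin A1 against vehicle (x axis) for each of the 32 genes (rows). Each gene has a point for rich and a point for depleted medium, with SE bars, and a vertical line marks no change. Filled points had an adjusted p under 0.05 (edgeR). ATF6, the gene whose difference passed the test, has its points at 0.04 in rich and 1.11 in depleted medium.

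Calls were also counted by promoter motif. Of the 11 genes with an ERSE, ERSE-II or UPRE core match, 4 rose with depletion in vehicle and 7 in bafilomycin A1. Of the 18 genes with a window and no such match, 8 and 12 rose. Of the 3 with no window, 1 and 1 rose. Over all 32 genes 13 and 20 rose (40.6% and 62.5%), where 15.5% and 10.5% of all genes did. A relation of motif and call was not tested, and these counts show none. DNAJB9, with the largest depletion change in vehicle, had no match, while CALR, with an ERSE at -225 to -207, was not called in the fit of all 12 libraries. The ATF6 window held no match either. What bound these windows was not measured.

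Further genes of the same processes were read from lists of known members. The counts of all lists below are to be read against the shares of all 18047 genes. With depletion in vehicle 15.5% of all genes rose and 15.4% fell, and in bafilomycin A1 10.5% and 13.6%. With bafilomycin A1 6.15% rose and 4.78% fell in rich medium, and 5.5% and 5.91% in depleted medium. Of 33 other ER folding enzymes tested, 4 rose and 6 fell with depletion in vehicle and 4 and 4 in bafilomycin A1. Bafilomycin A1 raised 1 and lowered 2 of them in rich medium. In depleted medium it lowered 1 (FKBP9, at -0.84) and raised 0 (3 at an unadjusted p under 0.05, 2 by DESeq2). ERO1B, an oxidase that feeds disulfide bonds to isomerases, rose by 2.88 with depletion in vehicle and by 1.61 with bafilomycin A1 in rich medium, whereas its relative ERO1A fell by 1.46 with depletion in vehicle. CLGN, a calnexin relative, rose by 2.57 with depletion in vehicle.

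Of 29 other ERAD genes, 4 rose and 5 fell with depletion in vehicle, where 15.5% of all genes rose and 15.4% fell. In bafilomycin A1 9 rose, where 10.5% of all genes did, with 0 lower (1 at an unadjusted p under 0.05, 1 by DESeq2). RNF185, an ERAD ubiquitin ligase, rose by 0.86 with depletion in vehicle, and UFD1 and VCP, subunits of the complex that pulls proteins from the membrane, fell by 0.93 and 0.76. In rich medium edgeR called 0 of the 29 with bafilomycin A1 (5 higher and 4 lower at an unadjusted p under 0.05, and 0 and 1 by DESeq2). In depleted medium it raised 3, with FAM8A1, a partner of HRD1, at 0.86. Of 23 translocation and N-glycosylation genes, 1 rose and 3 fell with depletion in vehicle, and 5 rose in bafilomycin A1, with 2 lower and 1 higher for bafilomycin A1 in rich and depleted medium. TRAM1, a translocon-associated protein, rose by 1.02, and SPCS3 of the signal peptidase fell by 0.78 with depletion in vehicle.

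Of 10 genes of the PERK branch and the integrated stress response, 9 rose with depletion in vehicle, 8 with bafilomycin A1 in rich medium, 3 in depleted medium and 7 with depletion in bafilomycin A1, and edgeR, DESeq2 and an unadjusted p under 0.05 each gave 0 lower. NUPR1 rose by 3.41 and DDIT3, the transcription factor CHOP, by 2.31 with depletion in vehicle, and in rich medium bafilomycin A1 raised them by 2.81 and 1.29. Of 12 other signalling genes of the unfolded protein response that were tested, 2 rose with depletion in vehicle and 1 in each of the other 3 comparisons, and 1 fell (CREB3L1, at -1.13 with depletion in bafilomycin A1). CREB3L3, a liver and gut relative of ATF6, rose by 2.10 with bafilomycin A1 in rich medium, and CREB3 rose by 1.13 in depleted medium. Of 12 ER-phagy and UFMylation genes, 5 rose and 1 fell with depletion in vehicle, 5 rose with depletion in bafilomycin A1 and 2 with bafilomycin A1 in rich medium. In depleted medium edgeR and DESeq2 called 0 of the 12, with 1 higher at an unadjusted p under 0.05. RETREG1, the ER-phagy receptor FAM134B, rose by 1.43 with depletion in vehicle and by 1.25 with bafilomycin A1 in rich medium.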

How the data were processed

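The 12 libraries were described by the submitters' labels as 4 groups of 3 Caco-2 samples, sequenced from total RNA after ribosomal RNA removal with a stranded kit. The deposited table of each sample gives estimated counts per gene, per the file headers, with 5.08% of values not whole. A series-wide deposited table gives whole-number counts. The submitters' processing notes name DRAGEN and GRCh38, with no version or role. Which annotation was counted, and whether by strand, is not stated in the sources at hand. Exons of 17 of the 32 genes overlap a gene on the opposite strand and 4 a gene on the same strand (GENCODE), so their reads may include those of the neighbour.

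The deposited estimated counts were rounded, filtered with filterByExpr (minimum count 10, minimum total 15) and scaled by TMM. edgeR 4.0.16 in R 4.3.3 fitted the 12 libraries together (1 coefficient for each group, 8 residual degrees of freedom), and quasi-likelihood p-values were Benjamini-Hochberg adjusted over 18047 genes, with a threshold of 0.05. CPM values are TMM-scaled. Effective lengths, as deposited, gave CPM per kb. Per-library values are given for HSPA5, HSP90B1, XBP1, the 3 sensors and up to 5 genes with the largest change among those called in each comparison; other lists could give up to 3 called genes each, averaging 1 CPM or more. Alternatives were DESeq2 1.42.0, its size factors, no filter, 6-library fits, a replicate block, the series-wide table and leaving out libraries. The scripts were tested on simulated data. There, log2 changes of 1 were recovered in 39 to 49% of changed genes in the 4 comparisons and in 13% in the interaction. Many true changes of this size can thus go uncalled. False calls were 2.52 to 8.21% of all calls. They exceeded the share that the threshold of 0.05 aims at for bafilomycin A1 in rich (8.21%) and depleted medium (7.2%) and for the interaction (5.97%). The members and lists were chosen with earlier results of these data known. Motif letters for TGATGCAA were set after the windows were read. Promoter sequences and positions are those of RefSeq.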

Additional observations from a re-analysis of the deposited data

Results flagged for a closer look

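ATF6 was singled out by the test of the difference between media: bafilomycin A1 changed it by 1.07 more on the log2 scale in depleted than in rich medium (adjusted p = 0.0173, edgeR). All 3 depleted libraries with bafilomycin A1 were above all 3 depleted vehicle libraries, at 162 to 234 against 86.3 to 103 CPM, while in rich medium the groups overlapped. The ATF6 call was lost in 3 of 20 alternative runs. Among them were those without depleted vehicle replicate 1 (adjusted p = 0.06, edgeR) and without depleted bafilomycin A1 replicate 2 (0.0562). As 1 of 32 genes (3.12%), it is near the share of all genes called higher by this test (2.35%). Outliers within groups were not tested, since each group held 3 libraries.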

How the results depend on the processing

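Counts of the 32 genes that rose depended on which libraries entered. Leaving out 1 library at a time gave 1 to 5 for bafilomycin A1 in rich medium (4 with all), 9 to 16 for depletion in vehicle (13), 4 to 9 with bafilomycin A1 in depleted cells (8), 16 to 20 for depletion in bafilomycin A1 (20) and 0 to 3 for the interaction (1), with 0 to 1 lower for the interaction and 0 in the other comparisons. Calls held in every alternative for 1 of 4, 9 of 13, 3 of 8, 15 of 20 and 0 of 1 genes in that order. In rich medium, bafilomycin A1 raised 1 gene in a fit of only its 6 libraries, and 1 without the shallow rich vehicle library and the rich bafilomycin A1 library that stood apart. Such 6-library fits gave 10 for depletion in vehicle, 11 with bafilomycin A1 in depleted cells and 25 for depletion in bafilomycin A1. The interaction held 3 genes with DESeq2, 3 with no filter and 3 with a replicate block.

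Replicate 2 held the highest value for 28 of 32 genes in rich vehicle, 31 in depleted vehicle and 27 in depleted bafilomycin A1. Leaving these 3 libraries out together, chosen after seeing the data, gave 4 with bafilomycin A1 in depleted cells and 0 in the interaction. Replicate numbers were not taken as pairs in the fit of all 12 libraries. Same-number deviations correlated at -0.0812 to 0.294, over 0.1 in 6 of 18 pairs, and 26 of 36 checks matched best with their own number. The 6 pairs were replicates 2 and 3 of rich vehicle, depleted vehicle and depleted bafilomycin A1. Whether these libraries shared a batch is not stated and was not tested, and the fit of all 12 holds no term for it. With the replicate block, 2 genes fell with bafilomycin A1 in depleted medium (CALR and PDIA6) and 1 with depletion in bafilomycin A1 (PDIA6), and the counts that rose were 5, 15, 11, 24 and 3. No call changed direction. In the shallow library DERL3 had 3 reads.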
